A study of Mus musculus with 6 samples.

Results

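A set of 10 genes of matrix proteolysis was followed in microglia, the resident macrophages of nervous tissue: the matrix metalloproteinases Mmp2, Mmp9, Mmp12 and Mmp14, their tissue inhibitors Timp1, Timp2 and Timp3, the membrane sheddases Adam10 and Adam17, and Plau, which encodes the urokinase plasminogen activator. They were chosen by symbol, and all 10 are among the 37447 genes of the deposited table, each on 1 row. The cells were sorted from optic nerves of C57BL/6 mice aged 3 months, in a study of optic glioma in neurofibromatosis type 1. In the 4 FMC libraries (FMC 1 to FMC 4) the mice had the genotype Nf1 flox/mut with GFAP-Cre, in which the promoter of an astroglial gene, not a microglial one, drives the recombinase. In the 2 FM libraries (FM 1 and FM 2) they had Nf1 flox/mut without the transgene, so a mutant Nf1 allele was shared by both groups. FMC 1, FMC 4 and FM 2 are labelled female, and FMC 2, FMC 3 and FM 1 male. Libraries of a group are biological replicates by their labels, and pooling of animals is not mentioned. Values are FPKM, fragment numbers relative to transcript length and library size, so levels of different genes can be compared per length.

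Metalloproteinases are zinc enzymes made as inactive precursors. Mmp14 stays in the cell membrane and activates pro-Mmp2 with the help of Timp2, while Mmp2 and Mmp9 are secreted and cleave denatured collagen and basement membrane collagen. Mmp12 is the macrophage elastase. Adam10 and Adam17 cut the outer part off membrane proteins, among them tumor necrosis factor and its receptors, and Timp3 restrains Adam17 as well as the metalloproteinases. Plau turns plasminogen into plasmin, which degrades matrix and activates other proteases.

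Microglial markers were abundant in every library: all 10 listed markers reached 1 FPKM, and their summed level ran from 2988 to 5105 FPKM in FMC and from 2896 to 5819 FPKM in FM. Markers of other cells were also present. The summed level of 6 markers of border-associated macrophages was 183 to 345 FPKM in FMC and 428 to 548 FPKM in FM, and that of 6 erythroid markers 23.6 to 32.7 FPKM in FMC and 128 to 158 FPKM in FM. The sum of 5 monocyte markers was 60.2 to 109 FPKM in FMC and 42.1 to 53.1 FPKM in FM, and 3 of the 5 had a positive difference. No marker of these lists was called between FMC and FM in the fit described below. FMC 1 stood apart in 9 T cell markers (261 FPKM, against 26.2 to 72.9 FPKM in the other libraries). In 10 markers of mural cells and fibroblasts its sum of 113 FPKM, against 12.5 to 32.9 FPKM in the others, held Dcn, named after its values were seen, at 90.2 FPKM, and without Dcn the sum was 22.98 FPKM in FMC 1, 5.73 to 10.8 FPKM in the other FMC libraries and 23.4 and 25.7 FPKM in FM 1 and FM 2. FMC 1 also held both Xist (16.3 FPKM) and the Y-linked Ddx3y (6.18 FPKM), whereas in the other 5 libraries Xist was above Ddx3y where the label is female and below it where the label is male. Nf1 was at 48.0, 58.1, 55.6 and 138 FPKM in FMC 1 to FMC 4 and at 39.3 and 50.0 FPKM in FM 1 and FM 2. An astroglial promoter drives the Cre transgene, so these Nf1 levels check no deletion.

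None of the 10 genes passed a test between FMC and FM against the spread between libraries, and in all 10 the values of the groups overlapped. In the fit across 18208 genes (limma on log2(FPKM + 1), two-sided, Benjamini-Hochberg adjustment, threshold 0.05), 9 of the 10 were tested and 0 were called, where 5 of all genes (0.0275%) were called. All of those 5 were lower in FMC. So were the 5 called with median ratio scaling, the 5 with quantile normalization and the 10 without an intensity trend. Elsewhere the direction differed: 1 gene was called, higher, with a pseudocount of 0.1, and 4 higher and 4 lower without FMC 4. These counts do not follow single genes. At an unadjusted p under 0.05 the count of the listed genes was also 0 of 9, against 5.34% of all genes. The FMC libraries all lay above both FM libraries in 0 of the 9 and all below in 0 of the 9, where 4.34% and 8.22% of all genes did so. The difference was positive in 4 and negative in 5, with a median of -0.12 on the log2 scale, and 56.5% of all genes tested had a negative difference, with a median of -0.12 as well. Timp1 reached 1 FPKM in only 1 library and stayed outside that fit. In bulk RNA of sorted cells, fewer cells of a type and less RNA per cell cannot be told apart.

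**Figure D1:**
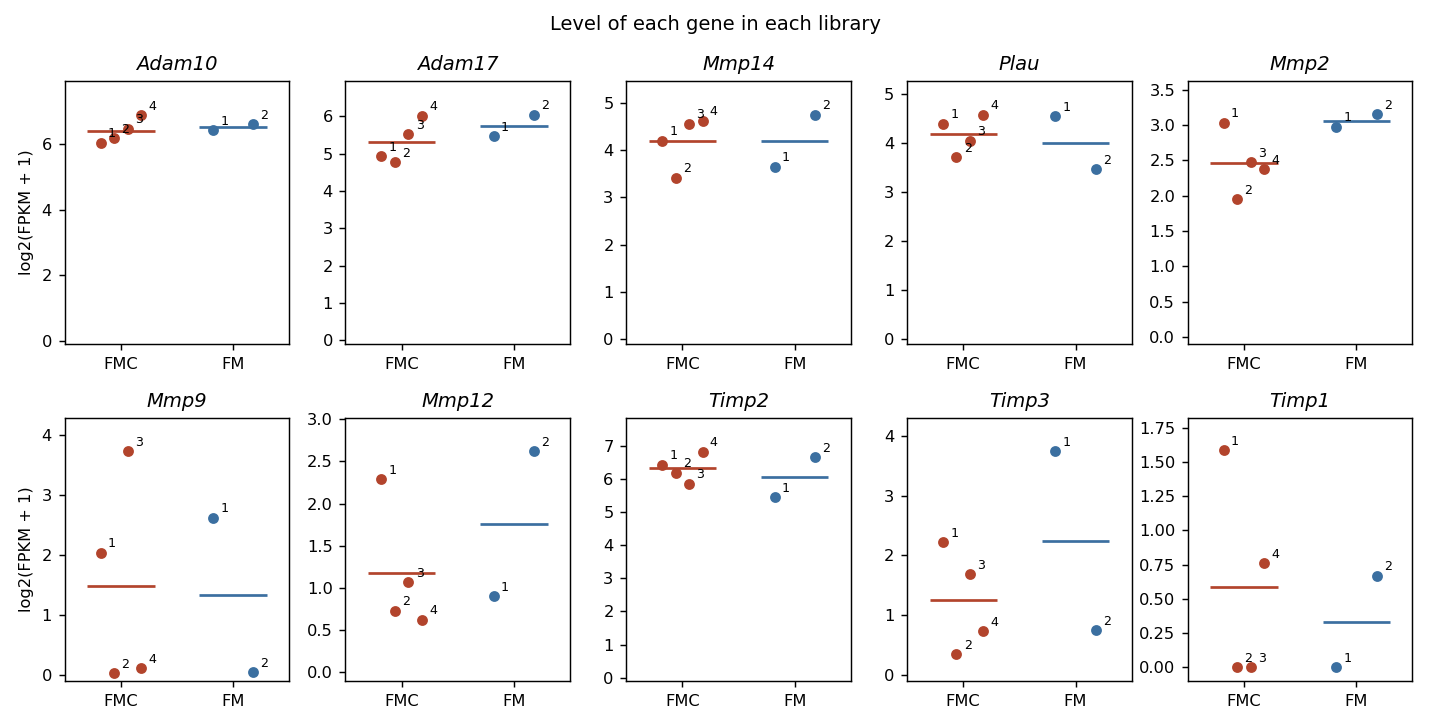
Level of each of the 10 genes as log2(FPKM + 1), with a panel per gene, 1 point per library and the replicate number beside it (FMC, 4 libraries; FM, 2 libraries); horizontal lines are group means, and the vertical scale differs between panels. In every panel the groups overlap, and Mmp9, with a residual SD of 1.78 on this scale, spreads much more than Adam10, with 0.33.

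What set the genes apart was their level and how steady it was. Over the 6 libraries Adam10 averaged 87.0 ± 18.6 FPKM (SD, n = 6), Timp2 78.2 ± 26.4 FPKM and Adam17 45.4 ± 16.3 FPKM. Mmp14 averaged 18.4 ± 6.7 FPKM, Plau 17.2 ± 5.4 FPKM and Mmp2 5.58 ± 1.99 FPKM. Mmp9 (3.43 ± 4.78 FPKM), Timp3 (3.32 ± 4.63 FPKM), Mmp12 (2.03 ± 1.98 FPKM) and Timp1 (0.546 ± 0.778 FPKM) were low, with an SD about as large as the mean or larger. Some neighbours in this order could not be separated: Adam10 lay above Timp2 in 3 of 6 libraries, Mmp14 above Plau in 3 of 6, and Mmp9 above Timp3 in only 1 of 6 although its mean was higher. Adam17 lay above Mmp14, and Plau above Mmp2, in 6 of 6. The 2 sheddases made up between 64.6% and 79.5% of the summed FPKM of the 7 proteases in a library. Timp2 made up 93.8% to 99.6% of the summed FPKM of the 3 inhibitors in the 4 FMC libraries, and 77.4% in FM 1 and 98.7% in FM 2.

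**Figure D2:**
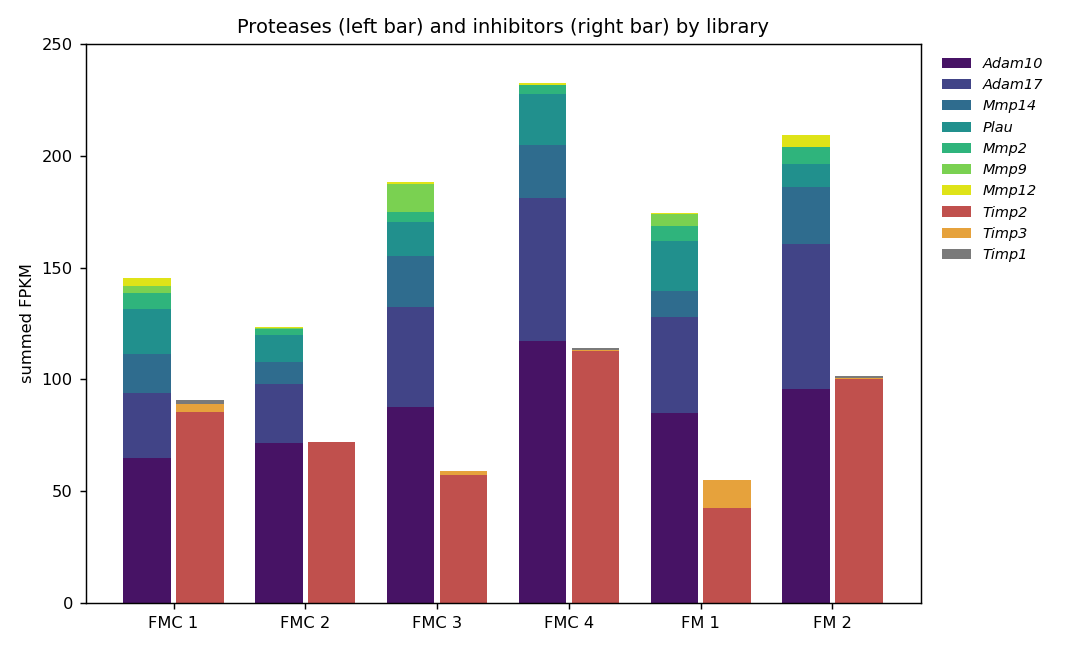
Summed FPKM of the 7 proteases (left bar) and of the 3 inhibitors (right bar) in each library, FMC 1 to FMC 4 and then FM 1 and FM 2, with a color for each gene. Adam10 and Adam17 fill most of each protease bar, and Timp2 fills most of each inhibitor bar, with Timp3 visible at 12.4 FPKM in FM 1.

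Of the 10 genes Adam10 had the smallest spread over the 6 libraries, with a coefficient of variation of 21.4%. Adam10, the constitutive sheddase (ENSMUSG00000054693, at 70526803 to 70628036 on chromosome 9 in mm9), stood at 64.6, 71.7, 87.7 and 117 FPKM in FMC 1 to FMC 4 and at 84.8 and 95.7 FPKM in FM 1 and FM 2. Both FM libraries lay inside the range of the FMC libraries. The difference between FMC and FM was -0.12 ± 0.44 (log2, SE), with a 95% interval from -1.12 to 0.89, and it turned to 0.04 with median ratio scaling of the libraries (limma, adjusted p = 0.999 before and 0.997 after scaling) and to 0.00 without FMC 1. Adam17, which releases soluble tumor necrosis factor (ENSMUSG00000052593, at 21329369 to 21379493 on chromosome 12), stood at 29.3, 26.4, 44.8 and 63.9 FPKM in FMC 1 to FMC 4, and at 43.2 and 64.6 FPKM in FM 1 and FM 2. FMC 1 and FMC 2 were the lowest, and FM 2 and FMC 4 were nearly level at the top. Its difference was -0.44 ± 0.52 (log2, SE; 95% interval -1.61 to 0.73; limma adjusted p = 0.998). It was -0.27 without FMC 2, -0.68 without FMC 4, -0.73 without FM 1 and -0.16 without FM 2. In the table Adam17 overlaps Iah1, which was at 0.658 to 13.1 FPKM in FMC and at 2.76 and 16.3 FPKM in FM, and reads of overlapping genes may not have been told apart by strand. The other rows that overlap Adam17 or Mmp14 are listed at 0 in all libraries.

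Among the other membrane and secreted proteases, Mmp14 (ENSMUSG00000000957, at 55050440 to 55060095 on chromosome 14) stood at 17.3, 9.68, 22.5 and 23.6 FPKM in FMC 1 to FMC 4 and at 11.5 and 25.8 FPKM in FM 1 and FM 2. The 2 FM libraries differed by more than the group means, which were 18.3 ± 6.3 FPKM in FMC (SD, n = 4) and 18.6 ± 10.1 FPKM in FM (SD, n = 2). The log2 difference was 0.00 ± 0.60 (SE), with a 95% interval from -1.35 to 1.35 (limma adjusted p = 1.00), and it was negative without FMC 3 (-0.12), FMC 4 (-0.14) or FM 1 (-0.55). Mmp2, the gelatinase that Mmp14 activates (ENSMUSG00000031740, at 95351226 to 95377316 on chromosome 8), was at 7.17, 2.87, 4.55 and 4.18 FPKM in FMC 1 to FMC 4 and at 6.85 and 7.87 FPKM in FM 1 and FM 2. FMC 1 lay between the FM libraries, and the other 3 FMC libraries lay below both. The difference of -0.60 ± 0.69 (log2, SE; 95% interval -2.17 to 0.96) did not pass (limma adjusted p = 0.998), and it was -0.79 without FMC 1. Mmp2 had a small spread for its level, in that 5.82% of the genes in the same decile of mean level had a smaller residual SD.

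Plau (ENSMUSG00000021822, at 21655883 to 21662610 on chromosome 14) stood at 20.0, 12.1, 15.5 and 22.9 FPKM in FMC 1 to FMC 4, against 22.3 and 10.1 FPKM in FM 1 and FM 2. The FM libraries thus lay close to the top and at the bottom of all 6. Its log2 difference was 0.18 ± 0.56 (SE; 95% interval -1.10 to 1.45; limma adjusted p = 0.999), and -0.36 without FM 2. The receptor of urokinase, Plaur, was at 11.8, 19.4, 1.77 and 38.8 FPKM in FMC 1 to FMC 4 and at 4.80 and 37.6 FPKM in FM 1 and FM 2. Both genes were highest in FMC 4, Plaur was lowest in FMC 3 and Plau in FM 2, and Plaur is named after its values were seen.

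The low proteases Mmp9 and Mmp12 moved widely from library to library within a group. For Mmp12 this was usual at its level, in that 44.0% of genes in the same decile of mean level had a smaller residual SD. Mmp9, a gelatinase also stored in neutrophil granules (ENSMUSG00000017737, at 164766279 to 164781350 on chromosome 2), was at 3.10, 0.0165, 12.2 and 0.0769 FPKM in FMC 1 to FMC 4 and at 5.13 and 0.0295 FPKM in FM 1 and FM 2. A set of 3 libraries was above 3 FPKM and the other 3 below 0.1 FPKM, and each genotype had libraries on both sides. The largest and smallest values differed 737-fold, and 92.4% of genes in the same decile of mean level had a smaller residual SD. The difference between FMC and FM was 0.14 ± 1.21 (log2, SE; 95% interval -2.61 to 2.89; limma adjusted p = 0.999) and was negative without FMC 1 (-0.04), FMC 3 (-0.61) or FM 2 (-1.14). Neutrophil markers were present in every library. All 10 on the list reached 1 FPKM somewhere, and their summed level was 501, 172, 68.6 and 232 FPKM in FMC 1 to FMC 4 and 374 and 50.5 FPKM in FM 1 and FM 2. FMC 3, with the highest Mmp9, was the lowest library in S100a8 (17.1 FPKM, against 40.2 to 213 FPKM elsewhere) and Mpo (0.0663 FPKM, against 0.344 to 17.3 FPKM). It was the highest in Mmp8 (2.06 FPKM, against 0.0369 to 0.0960 FPKM), Cxcr2 (16.6 FPKM, against 0.0555 to 2.59 FPKM) and Elane (1.52 FPKM, against 0.225 FPKM or less), and it was neither in the other 5 markers. These markers are named after their values were seen. The part of neutrophils in the Mmp9 values was not tested.

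Mmp12 (ENSMUSG00000049723, at 7344380 to 7369499 on chromosome 9) stood at 3.88, 0.658, 1.10 and 0.541 FPKM in FMC 1 to FMC 4 and at 0.867 and 5.16 FPKM in FM 1 and FM 2. A single library was high in each group, FMC 1 and FM 2, both labelled female, while FMC 4, also labelled female, was the lowest of all. The difference was -0.58 ± 0.82 (log2, SE; 95% interval -2.43 to 1.26; limma adjusted p = 0.999). It became 0.28 without FM 2. In the table Mmp12 overlaps Mmp1b, which was at 0.774 FPKM or less in every library.

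Of the inhibitors, Timp2 (ENSMUSG00000017466, at 118162382 to 118217054 on chromosome 11) stood at 85.3, 71.8, 57.0 and 113 FPKM in FMC 1 to FMC 4 and at 42.5 and 100.03 FPKM in FM 1 and FM 2. FM 1 was the lowest library and FM 2 the second highest. The log2 difference was 0.27 ± 0.51 (SE; 95% interval -0.89 to 1.44; limma adjusted p = 0.999), and -0.33 without FM 1. In the table BC100451 lies inside Timp2. It was at 1.205 to 57.0 FPKM in FMC, highest in FMC 2, and at 10.3 and 18.6 FPKM in FM. Here too, reads of overlapping genes may not have been told apart by strand.

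Timp3, an inhibitor bound to the matrix (ENSMUSG00000020044, at 85763116 to 85812251 on chromosome 10), was at 3.68, 0.271, 2.21 and 0.664 FPKM in FMC 1 to FMC 4 and at 12.4 and 0.685 FPKM in FM 1 and FM 2. FM 1 stood alone at the top, and FM 2 lay with the low FMC libraries. In the Timp3 decile of mean level, 64.7% of genes had a smaller residual SD. The Timp3 difference had the largest size of the 9 tested genes, -1.002 ± 1.00 (log2, SE, 95% interval -3.28 to 1.27, limma adjusted p = 0.994). Without FM 1 it was 0.49. The 3 libraries with Timp3 above 2 FPKM, FMC 1, FMC 3 and FM 1, were also the 3 with Mmp9 above 3 FPKM. This pair of genes and both cutoffs were picked after the values were seen, and the match was not tested. Mural and fibroblast markers, 8 of 10 of which reached 1 FPKM, summed to 113, 12.5, 14.9 and 12.7 FPKM in FMC 1 to FMC 4 and to 25.3 and 32.9 FPKM in FM 1 and FM 2. Without Dcn the sums were 22.98, 10.8, 5.73 and 10.2 FPKM in FMC 1 to FMC 4 and 23.4 and 25.7 FPKM in FM 1 and FM 2, and the part of these markers in the Timp3 values was not tested. The Timp3 interval lies inside that of Syn3, a neuronal synapsin gene, which was at 0.143 to 1.33 FPKM in FMC and at 1.34 and 0.531 FPKM in FM.

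Timp1 (ENSMUSG00000001131, at 20447291 to 20451861 on chromosome X), the secreted inhibitor that inflammatory signals induce in many cells, was at 2.00 FPKM in FMC 1 and 0.692 FPKM in FMC 4, at 0.587 FPKM in FM 2, and listed at 0 in FMC 2, FMC 3 and FM 1. All 3 libraries with a value are labelled female, and all 3 listed at 0 are labelled male. All female libraries lay above all male ones in 9.03% of the genes tested. Timp1 is not among those genes, so that share need not hold for genes as low. FMC 1, with the highest value, is the library that also held Ddx3y at 6.18 FPKM. An exact two-sided permutation test of the genotype difference of 0.25 (log2) gave p = 0.8, where the 15 ways to draw 2 of 6 libraries allow no p under 0.0667, and the difference was -0.08 without FMC 1 and likewise without FM 1. Timp1 lies inside Syn1, another synapsin gene, which was at 0.740 FPKM or less in every library.

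**Figure D3:**
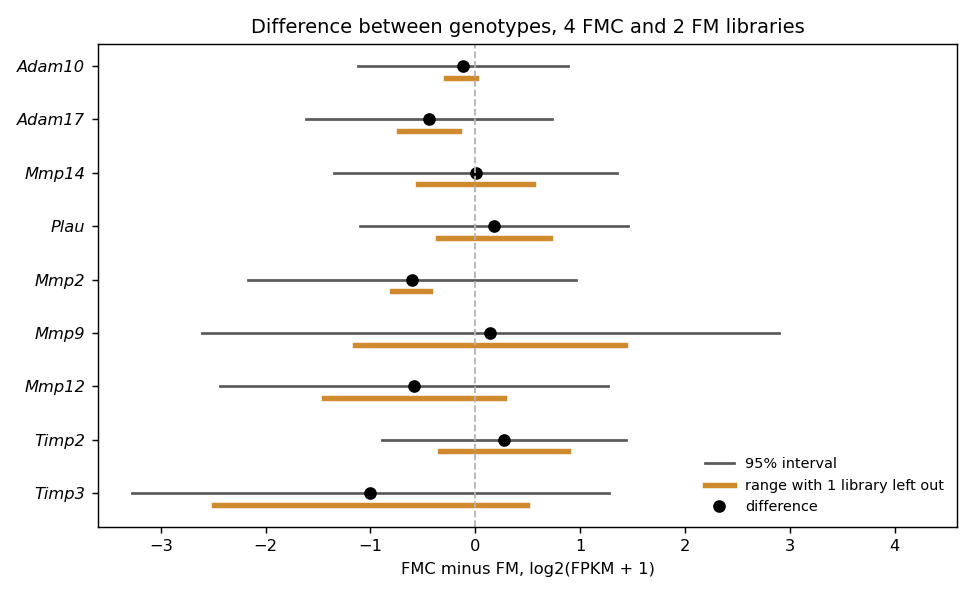
FMC minus FM difference of the 9 genes in the fit, on the log2(FPKM + 1) scale, with its 95% interval (gray line, from 4 FMC and 2 FM libraries) and the range of the difference when 1 library at a time is left out (orange line). Every interval spans 0, from the narrowest, Adam10 (-1.12 to 0.89), to the widest, Mmp9 (-2.61 to 2.89). The variance behind each interval is drawn partly from other genes of similar level.

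The promoters of 7 of the 10 genes are in the RefSeq table supplied (GRCm38.p6, a later build than that of the expression table). The 250 bases before the start are shown for Adam10, with the steadiest level of the 10, and for Timp3 and Mmp12. The levels of Timp3 and Mmp12 were low, with an SD about as large as the mean or larger. Capitals mark a GC box (GGGCGG) or an AP-1 motif (TGANTCA), searched on both strands. The Mmp12 window is the second of 2 listed starts, since the first holds none of the motifs searched. That first window, upstream at chr9:7344147-7344396, holds 0 CpG dinucleotides, and which start the sorted cells used was not tested.
Adam10 (+ strand, chr9:70678732-70678981): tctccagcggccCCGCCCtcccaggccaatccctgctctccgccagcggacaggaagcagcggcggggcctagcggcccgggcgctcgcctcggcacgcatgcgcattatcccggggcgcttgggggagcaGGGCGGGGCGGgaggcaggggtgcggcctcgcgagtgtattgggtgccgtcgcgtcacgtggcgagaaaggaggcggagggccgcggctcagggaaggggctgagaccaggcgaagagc
Timp3 (+ strand, chr10:86300162-86300411): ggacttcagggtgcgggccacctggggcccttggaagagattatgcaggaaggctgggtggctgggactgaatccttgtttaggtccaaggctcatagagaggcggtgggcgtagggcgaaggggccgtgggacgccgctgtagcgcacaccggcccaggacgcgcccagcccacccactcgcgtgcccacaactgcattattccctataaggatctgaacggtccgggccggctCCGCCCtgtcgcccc
Mmp12 (+ strand, chr9:7347124-7347373): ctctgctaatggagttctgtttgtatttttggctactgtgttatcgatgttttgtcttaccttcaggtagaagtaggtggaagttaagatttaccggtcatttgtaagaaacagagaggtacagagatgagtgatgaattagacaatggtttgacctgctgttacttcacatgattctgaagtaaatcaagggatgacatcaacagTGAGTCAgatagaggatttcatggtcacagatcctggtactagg

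These windows differ in base composition. The Adam10 window holds 29 CpG dinucleotides, more than 93.2% of the 32851 promoter windows of the same length, and 3 GC boxes, of which 2 overlap. The Timp3 window holds 18 CpGs, more than 78.3% of those windows, and 1 GC box. The Mmp12 window holds 2 CpGs, more than 18.8% of them, no GC box and 1 AP-1 motif. A GC box is present in 32.7% and an AP-1 motif in 6.75% of all such windows. The Mmp12 window was picked because it holds a motif, so its AP-1 match cannot be weighed against that 6.75%. A TATAAA motif was also searched and is in none of the 3, against 12.4% of all windows. These matches describe letters in the windows and show no binding.

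Libraries whose titles carry dates 1 day apart gave 2 further views of the genotype difference, FMC 2 minus FM 1 (both male) and FMC 3 minus FM 2 (male and female). Timp3 differed by -3.40 in the first pair and by 0.93 in the second (log2), and Mmp9 by -2.59 and 3.68. Timp2 differed by 0.74 and -0.80, and Plau by -0.83 and 0.58. The pairs went in opposite directions for these 4 genes. Mmp2 differed by -1.02 and -0.68, Adam17 by -0.69 and -0.52, Mmp12 by -0.17 and -1.55, Adam10 by -0.24 and -0.13, and Mmp14 by -0.22 and -0.19. The median difference of all genes, in a fit with a block for each such pair, was -0.21; FMC 1 and FMC 4 have no partner and drop out of that fit. What the dates stand for is not stated.

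Sex was the other label that differed between libraries, and no gene passed in that comparison (limma with genotype as a covariate; 0% of 18208 genes called, and 7.44% at an unadjusted p under 0.05). Of the 9 genes tested, Timp2 had the smallest p. It was at 85.3, 113 and 100.03 FPKM in FMC 1, FMC 4 and FM 2, labelled female, and at 71.8, 57.0 and 42.5 FPKM in FMC 2, FMC 3 and FM 1, labelled male. The sexes did not overlap, as was the case in this direction for 9.03% of all genes tested; the reverse, all male libraries above all female ones, held for 3.27%. The difference of 0.81 ± 0.37 (log2, SE, female minus male) had an adjusted p of 0.681. It was 0.98 without FMC 1 (limma adjusted p = 0.481) and 0.44 after quantile normalization (limma adjusted p = 0.877). The summed FPKM of all genes also separated these libraries, at 606861 to 671374 in those labelled female and 417487 to 491810 in those labelled male, and its part in the Timp2 difference was not tested. The interaction of genotype and sex was called in 0% of genes (limma; 3.77% at an unadjusted p under 0.05), with an adjusted p of 0.999 for each of the 9.

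The wider pathway was followed in 7 lists with 105 genes, of which 104 were matched and 66 passed the filter on low values. None of the 66 was called in either direction (limma, smallest adjusted p = 0.723), 1 was higher and 1 lower at an unadjusted p under 0.05, and the median log2 difference was -0.12, as it was over all genes tested. The FMC libraries all lay above both FM libraries in 4 of the 66 and all below in 3, against 4.34% and 8.22% of all genes.

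Of 19 other metalloproteinases 6 were tested, 2 with a positive and 4 with a negative difference. Mmp25, a membrane-anchored metalloproteinase of leukocytes, was at 1.17, 1.55, 0.591 and 5.01 FPKM in FMC 1 to FMC 4, against 0.106 and 0.0136 FPKM in FM 1 and FM 2, a difference of 1.35 (log2, limma adjusted p = 0.993). Mmp16, another membrane-anchored form, was at 1.67, 1.41, 2.13 and 6.86 FPKM in FMC, against 1.21 and 0.706 FPKM in FM. For both, every FMC library lay above both FM libraries, at levels of a few FPKM. Mmp19 was at 0.208 to 1.81 FPKM in FMC and at 2.86 and 1.56 FPKM in FM.

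Of 13 other ADAM and ADAMTS proteases 9 were tested, 3 with a positive and 6 with a negative difference. Adamts10 was at 8.18 to 24.6 FPKM in FMC and at 22.6 and 50.1 FPKM in FM (difference -1.15, limma adjusted p = 0.993), Adamts1, which cleaves aggrecan and versican, at 4.78 to 36.3 FPKM in FMC and at 33.7 and 22.0 FPKM in FM, and Adam33 at 6.83 to 31.2 FPKM in FMC and at 16.5 and 28.9 FPKM in FM. Adam15, named after its values were seen, was at 123 to 175 FPKM in FMC and at 95.4 and 147 FPKM in FM. Its level was above that of Adam10 in all 6 libraries.

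In the plasminogen system 5 of 10 genes were tested, 3 with a positive and 2 with a negative difference. St14, which encodes the membrane serine protease matriptase, was at 0.958 to 14.0 FPKM in FMC and at 5.33 and 19.3 FPKM in FM. Serpine2, an inhibitor of urokinase and thrombin, was at 50.8 to 186 FPKM in FMC and at 31.0 and 174 FPKM in FM, and Lrp1, the endocytic receptor that clears protease and inhibitor complexes, at 83.7 to 160 FPKM in FMC and at 126 and 93.5 FPKM in FM. Plg itself, named after its values were seen, was at 0.419 FPKM or less in every library.

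Of 11 other protease inhibitors 5 were tested, 4 with a positive and 1 with a negative difference. Spock1, which encodes the secreted proteoglycan testican-1, was at 4.73, 3.80, 2.36 and 15.0 FPKM in FMC 1 to FMC 4 and at 0.0439 and 0.188 FPKM in FM 1 and FM 2. Every FMC library lay above both FM libraries. Its difference of 2.48 (log2) had the smallest p of the 66 genes, and it did not pass (limma adjusted p = 0.723). Serpina3n, a serine protease inhibitor, was at 0.966 to 8.60 FPKM in FMC and at 28.1 and 3.77 FPKM in FM. Slpi, the secretory leukocyte protease inhibitor, was at 44.8 FPKM in FMC 1 and 0.264 to 6.37 FPKM in the other FMC libraries, against 0.669 and 3.07 FPKM in FM. Timp4, named after its values were seen, was at 17.1 FPKM in FMC 1 and at 0.194 FPKM or less in the other 5 libraries.

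Among 15 activators and partners 11 were tested, 4 with a positive and 7 with a negative difference. Rhbdf1, which encodes iRhom1, a carrier of Adam17 to the cell surface, was at 0.875 to 7.43 FPKM in FMC and at 4.02 and 11.3 FPKM in FM (difference -1.06, limma adjusted p = 0.993). Its relative Rhbdf2, the iRhom that serves Adam17 in immune cells and was named after its values were seen, was at 3.47 to 12.4 FPKM in FMC and at 9.04 and 8.36 FPKM in FM. Pcsk7, a proprotein convertase, was at 3.59 to 9.43 FPKM in FMC and at 9.53 and 5.94 FPKM in FM. Frmd8, which stabilizes the complex of Adam17 and iRhom, was at 1.14 to 8.76 FPKM in FMC and at 0.770 and 24.0 FPKM in FM.

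Of 17 proteins shed by Adam10 or Adam17, 16 were tested, 10 with a positive and 6 with a negative difference. Vcam1, an adhesion molecule, was at 16.6, 15.2, 27.2 and 33.5 FPKM in FMC 1 to FMC 4 and at 14.4 and 4.49 FPKM in FM 1 and FM 2 (difference 1.32, limma adjusted p = 0.979). Every FMC library lay above both FM libraries, FMC 2 by less than 1 FPKM. The receptor tyrosine kinase gene Axl was at 78.4 to 329 FPKM in FMC and at 52.8 and 86.8 FPKM in FM. Il6ra, the interleukin-6 receptor, was at 17.9 to 26.6 FPKM in FMC and at 30.5 and 43.9 FPKM in FM, with every FMC library below both FM libraries (difference -0.66, limma adjusted p = 0.993).

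Of 20 matrix proteins that these proteases can cleave, 14 were tested, 3 with a positive and 11 with a negative difference, and the median was -0.51. Col1a1, the alpha 1 chain of type I collagen, was at 3.76, 0.771, 1.90 and 0.680 FPKM in FMC 1 to FMC 4 and at 8.39 and 8.90 FPKM in FM 1 and FM 2 (difference -1.93, limma adjusted p = 0.853). Every FMC library lay below both FM libraries, as it did for Col3a1, at 0.0482 to 2.91 FPKM in FMC and at 3.55 and 3.67 FPKM in FM. Col6a1 was at 0.163 to 3.15 FPKM in FMC and at 4.55 and 2.85 FPKM in FM. Col1a1 and Col3a1 are also markers of fibroblasts, whose part was not tested. Sparc, a collagen-binding glycoprotein named after its values were seen, was at 625 to 1068 FPKM in FMC and at 670 and 1619 FPKM in FM.

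**Figure D4:**
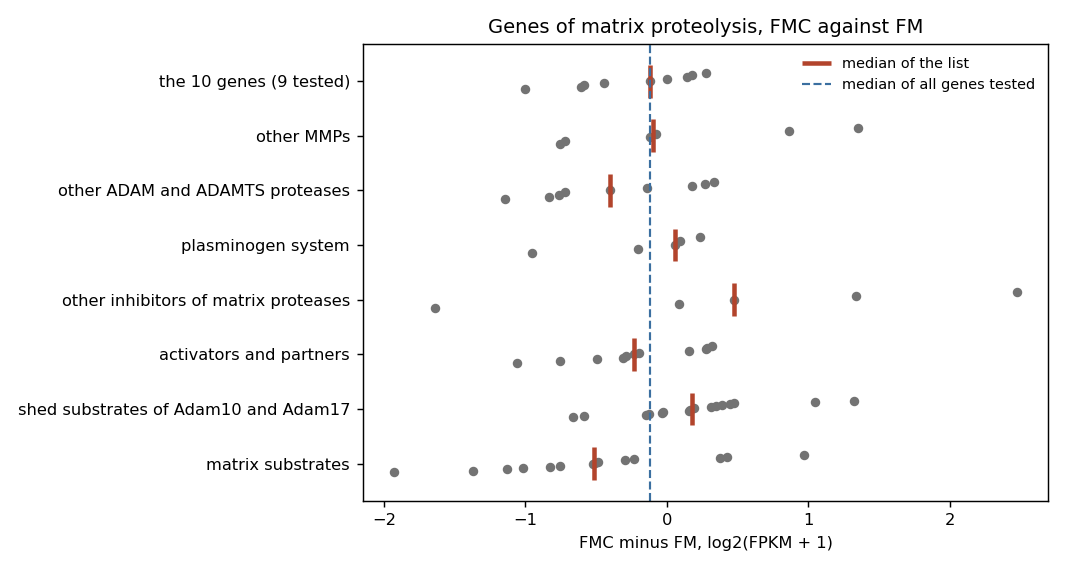
FMC minus FM difference on the log2(FPKM + 1) scale for each tested gene (gray points) of the 10 genes and of 7 lists of related genes; red bars are list medians and the dashed line is the median of all 18208 genes tested, -0.12. The median of the 10 genes (9 tested) falls on that line, and the list medians run from -0.51 for matrix substrates to 0.48 for other inhibitors.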

How the data were processed

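The authors deposited 1 FPKM value per Ensembl gene and library. CASAVA 1.8.2, TopHat2 2.0.4, Bowtie2 2.0.0, Cufflinks 2.0.2 and mm9 are named, with no role given, in the submitters' processing notes, and whether reads were counted by strand was not checked. Read counts were not used here and depth is unknown. A gene lacking a value in any library (426 of 37447) was dropped.

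The test scale, log2(FPKM + 1), understates changes of low genes. A gene entered when 2 or more of the 6 libraries had 1 FPKM or more, which left 18208. The model was limma 3.58.1 (R 4.3.3), trended by mean level. Its SEs, intervals and p-values rest on a moderated variance. That variance combines a gene's own spread between these libraries (4 degrees of freedom) with that of genes of similar level (median 4.91). Scripts were tested on simulated data. All 6 value columns were matched by name. Deciles of mean level are over the genes tested.

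The 10 genes, pathway lists and markers were chosen with earlier results of these data known. The text names the 10, Nf1, genes overlapping the 10 and, per list, the 3 with the smallest p; others are marked. Gene coordinates are mm9, counted from 1. The closing section gives the alternatives: other pseudocount (0.1), filters, scalings and trend, sex or a block in the model, and omission of each library.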

Additional observations from a re-analysis of the deposited data

Results flagged for a closer look

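Mmp12 in FMC 1, at 3.88 FPKM, was far above the other 3 FMC libraries, which lay between 0.541 and 1.10 FPKM. Nf1 in FMC 4, at 138 FPKM, was far above the other 3 FMC libraries, which lay between 48.0 and 58.1 FPKM. Each was picked out because its gap to the nearest library, divided by the range of the 4 libraries (0.833 for Mmp12, 0.888 for Nf1), exceeded Dixon's 95% critical value for 4 libraries. These ratios were taken on FPKM, not on the log2(FPKM + 1) scale of the fit, and the flags were not tested on that scale. Chance flags about 1 in 20 groups when values are normally distributed, which was not checked for FPKM, so the rate for these groups is unknown. In all, 11 genes were examined.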

How the results depend on the processing

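None of the 9 tested genes was called under any alternative. The count of all genes called between FMC and FM was 5 in the report, all lower in FMC. It was also 5, all lower, with median ratio scaling and with quantile normalization. It was 1 (higher in FMC) with a pseudocount of 0.1, 0 without a filter and 0 with a mean of at least 5 FPKM. It was 10 (all lower) without an intensity trend, 0 with sex as a covariate and 3 (2 higher, 1 lower) with a block by title date. With 1 FMC library left out it was 0 to 8. The count between the sexes, 0 in the report, was 0 to 4 with 1 FMC library left out. The median difference of all genes was -0.12 as reported, -0.01 when scaled by median ratios and 0.04 when quantile normalized. With median ratio scaling the difference was 0.037 for Adam10 and -0.29 for Adam17. With a block by title date it was -0.21 for Mmp14, -0.029 for Timp2 and -0.13 for Plau. With 1 library left out it ran from -1.14 to 1.43 for Mmp9, -1.45 to 0.28 for Mmp12, -0.55 to 0.55 for Mmp14, -0.33 to 0.88 for Timp2, -2.50 to 0.49 for Timp3, -0.28 to 0.0044 for Adam10, -0.36 to 0.71 for Plau and -0.081 to 0.59 for Timp1. Mmp2 and Adam17 kept a negative difference in all 15 alternatives each, Adam17 from -0.73 to -0.16 with 1 library left out. The other filters, the fit without a trend and sex as a covariate leave the difference itself unchanged, so they do not bear on its sign. In the main fit 56.5% of all genes tested had a negative difference. Where 1 FM library remained, its spread was taken from the FMC group. The cause of these shifts was not tested. With a replicate block by label number 0 genes were called, and the difference was -0.30 for Mmp9, -0.39 for Mmp14 and -0.90 for Adam17. Deviations of same-numbered libraries correlated at 0.03 and -0.06, and those of the title-date pairs at 0.06 (FMC 2, FM 1) and -0.07 (FMC 3, FM 2). With 2 FM libraries the deviations of FM 1 and FM 2 mirror each other, so these correlations cannot tell whether libraries are paired. The Timp2 alternatives between the sexes were chosen after seeing the data. Read depth is unknown, which limits the low values of Mmp9, Mmp12, Timp3 and Timp1.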
